A study of Mus musculus with 4 samples.

Results

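The comparison described here sets wild-type primary mouse embryonic fibroblasts given an siRNA against Dyrk2 (siDyrk2) against the same kind of cells given a negative-control siRNA (siNeg). Both cultures were also treated with SAG at 100 nM for 24 h. Every gene with at least 1 FPKM (fragments per kilobase of exon per 1e+06 fragments) in either library was taken, which gave 12429 of the 55573 gene identifiers in the files, and 10915 of these were protein-coding. The series holds 4 libraries of bulk RNA sequencing, 1 per group. The other 2 came from SAG-treated fibroblasts without siRNA, 1 wild type and 1 lacking Dyrk2 (knockout), and their values are given beside those of the siRNA pair. Whether separate embryos gave the cultures, how long before harvest the siRNA was added and which siRNA sequence was used are not stated in the labels. With 1 library on each side no difference below has a replicate check, and none was tested.

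Hedgehog signalling runs through the primary cilium. Without ligand, the receptor Patched holds the membrane protein Smoothened inactive, and protein kinase A and SUFU keep the GLI transcription factors in repressor or restrained form. Once Smoothened is active, GLI2 switches on target genes, among them Gli1 and the feedback inhibitors Ptch1 and Hhip, while GLI3 acts mostly as a repressor. SAG binds Smoothened itself, so the pathway is on without any ligand. DYRK2 is a dual-specificity kinase, and the series title names GLI2 and GLI3 as its substrates. The comparison therefore asks which transcripts differ in cells with an active pathway when Dyrk2 mRNA is lowered by siRNA.

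Differences are given as log2((FPKM + 1)/(FPKM + 1)), siDyrk2 over siNeg, called the log2 ratio below, a scale that understates differences of genes with low levels. "Fold" means the plain ratio of FPKM values, with a 95% interval that covers counting error only. A gene is counted as 2-fold higher or lower when its log2 ratio reaches 1 or -1. The depth, recovered from the steps in the deposited values, was 19.98 M fragments for siNeg and 21.5 M for siDyrk2 (M, 1e+06), and 21.9 to 23.9 M for the other libraries. Fibroblast genes were abundant in both, with Col1a1 at 3207.77 and 2376.90 FPKM and Vim at 409.94 and 615.97 FPKM in siNeg and siDyrk2. Skeletal muscle and erythroid marker genes were absent or nearly so, with 0 of 7 and 0 of 5 reaching 1 FPKM.

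The siRNA target was low in the library labelled siDyrk2. Dyrk2 (ENSMUSG00000028630, chromosome 10, 118855603 to 118870209, GRCm38) had 882 fragments in siNeg and 109 in siDyrk2, or 7.06 and 0.81 FPKM. That is an 8.72-fold lower level (7.12 to 10.7), and it left siDyrk2 near the knockout's 0.57 FPKM and far from the 6.59 FPKM of wild type. Other kinases of the family were nearly level: Dyrk1a was at 8.82 and 8.53 FPKM, Dyrk1b at 8.38 and 8.57, and Hipk1 at 9.22 in both. Hipk2 was the exception among the 5 DYRK and HIPK kinases measured, at 3.17 FPKM in siNeg and 2.21 in siDyrk2 (log2 ratio -0.38). None of the 5 was 2-fold different.

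Across all 12429 genes the siDyrk2 and siNeg libraries were close. The median log2 ratio was 0.02, with 6765 genes (54.4%) higher in siDyrk2 by any amount and 5613 (45.2%) lower. Those shares are the background for all counts of higher and lower list members below. By the 2-fold rule 96 genes (0.772%) were higher and 102 (0.821%) lower. Among protein-coding genes 38 of 10915 (0.348%) were 2-fold higher and 48 (0.44%) lower. The 5th and 95th percentiles of their log2 ratios were -0.41 and 0.45. The same rule applied to siNeg against untransfected wild type, both with intact Dyrk2, gave 2 of 10896 protein-coding genes higher (0.0184%) and 15 lower (0.138%). Counting error did not span equality for any of the 38 or the 48, but the rule picked these genes from the same counts. This is therefore no separate check of them. At the edge of the rule, Dbp (16.05 and 7.52 FPKM), Gfra2 (-1.01), Cpox (1.02) and Mt1 (1.02) lay just inside. Tmem65 (-0.99), Gulp1 (-0.98), Tmem106c (6.42 and 13.80 FPKM) and Actg2 (19.03 and 39.04 FPKM) lay just outside. At the 1 FPKM limit Lipe and Mutyh, at 1 FPKM in siDyrk2, were just inside, and Spata2l and Bace2, at 0.99, just outside.

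**Figure D1:**
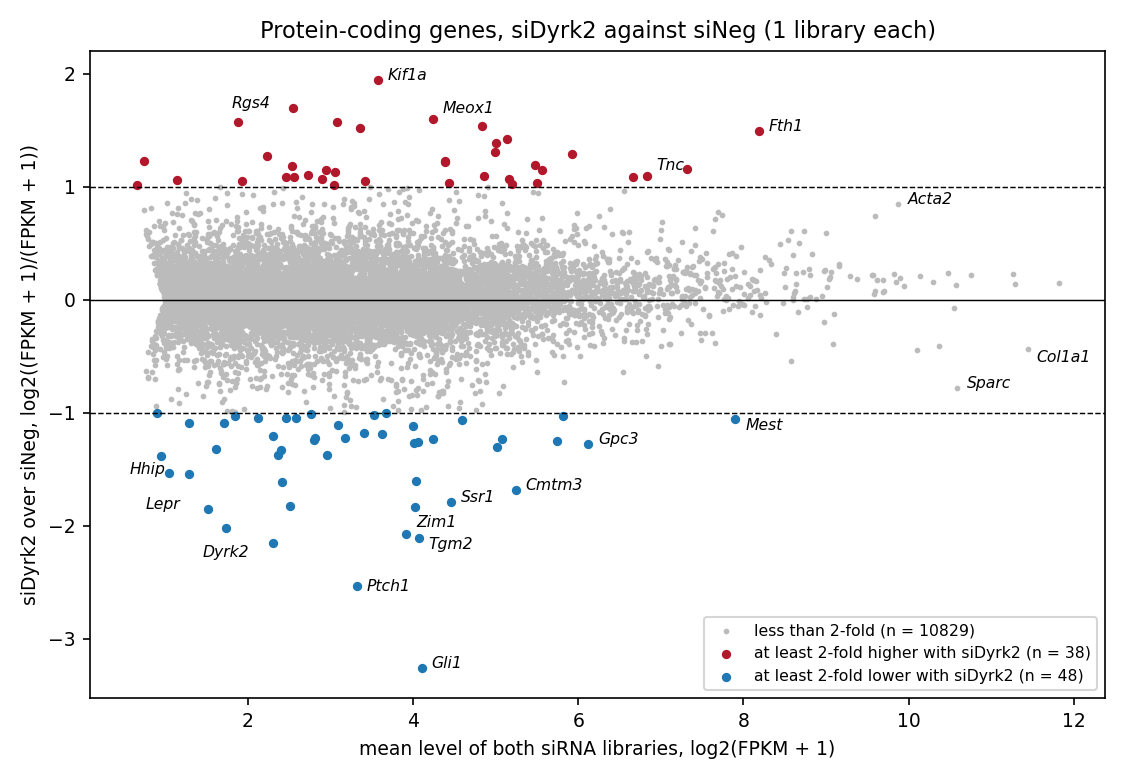
Log2 ratio of siDyrk2 over siNeg (vertical axis, FPKM + 1) against the mean level of both siRNA libraries (horizontal axis, log2(FPKM + 1)) for 10915 protein-coding genes, 1 point per gene, with dashed lines at the 2-fold rule. Gli1 and Ptch1 lie lowest, Kif1a highest, and the abundant genes Sparc and Col1a1 lie below 0 without reaching 2-fold.

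Hedgehog ligand genes were hardly expressed in either siRNA library. Shh had 0 FPKM in both, Ihh 0.08 and 0.03, and Dhh 0.01 and 0.03, and only 3 of the 9 genes for ligands and their release reached 1 FPKM. Disp1, which releases the lipid-modified ligand from cells, was at 14.82 FPKM in siNeg and 17.48 in siDyrk2 (0.22). Hhat, the acyltransferase that modifies the ligand, was at 2.03 and 1.91 FPKM.

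At the cell surface, 9 of 10 measured reception genes were lower in siDyrk2 (background 45.2%), 4 of them 2-fold, and the median log2 ratio was -0.33. Receptor and antagonist genes that Hedgehog itself induces were far lower. Ptch1, the ligand receptor, was at 16.03 FPKM in siNeg and 1.95 in siDyrk2, against 16.32 for wild type and 1.23 for the knockout. Hhip, a membrane protein that sequesters ligand, was at 2.64 and 0.25 FPKM, against 3.87 and 0.15. For Ptch1 and Hhip both libraries with lowered Dyrk2 were below both with intact Dyrk2, and the knockout was the lower of the pair. Whether fewer cells of a responding type or less RNA per cell lay behind such a difference cannot be told apart in bulk RNA.

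Other surface proteins differed less, except for 1 glypican. Gpc3, a heparan sulfate proteoglycan that competes with Patched for ligand (chromosome X, 52272426 to 52613950), was at 97.24 FPKM in siNeg and 39.61 in siDyrk2, a 2.45-fold lower level (2.34 to 2.58). Wild type was at 98.90 and the knockout at 87.63 FPKM, so siDyrk2 alone was low. Its relatives Gpc4 (254.98 and 248.80 FPKM) and Gpc6 (23.51 and 20.04) were nearly level. The co-receptor genes split, with Gas1 at 96.72 FPKM in siNeg and 129.65 in siDyrk2 (0.42), and with Cdon (-0.36) and Boc (-0.30) lower. Smo, the target of SAG, was at 33.91 and 30.95 FPKM (-0.13).

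Between Smoothened and the nucleus the genes were mostly level, apart from Gli2. Of 34 transduction genes measured, 12 were higher and 22 lower in siDyrk2, 1 of them 2-fold, with a median of -0.04. Gli2 (chromosome 1, 118834132 to 119053619) was at 20.80 FPKM in siNeg and 9.05 in siDyrk2, a 2.30-fold lower level (2.15 to 2.45). Wild type was at 20.38 FPKM and the knockout at 8.66, so the 4 values formed a high and a low pair. Gli3 was at 7.98 and 7.07 FPKM (-0.15), Sufu, the inhibitor that binds GLI proteins, at 5.58 and 5.09 (-0.11), and Kif7, the ciliary kinesin of the pathway, at 4.03 and 3.78 (-0.07). Prkacb, which encodes a catalytic subunit of the kinase that restrains GLI proteins, stood second in size at 10.72 FPKM in siNeg and 5.62 in siDyrk2 (-0.82). For this gene wild type and knockout were both higher, at 15.78 and 15.77 FPKM, and the more abundant subunit gene Prkaca was nearly level at 48.30 and 45.23. Tulp3, a ciliary trafficking factor, was at -0.38, and Gsk3b, a kinase that takes part in GLI processing, at -0.37. Adcy6 (0.38) and Smurf1 (0.32) were the highest. For Adcy6 siNeg (15.61 FPKM) was the low library, with 20.61 in siDyrk2, 23.26 in wild type and 24.83 in the knockout. The 31 intraflagellar transport and BBSome genes measured had a median of 0.10, with 20 higher, 11 lower and none 2-fold different. Ift88, a core transport subunit, was the lowest of those (-0.53) and Kif3a, the transport motor, the highest (0.48). Kif3a was at 8.07 FPKM in siNeg and 11.66 in siDyrk2, but wild type (11.49) and knockout (11.73) matched siDyrk2.

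The target genes themselves separated into 4 feedback genes and the rest. Of 17 measured target genes 12 were lower in siDyrk2 and 5 higher (median -0.21), and 4 were 2-fold lower, among them Gli1, Ptch1 and Hhip. Gli1 had 3011 fragments in siNeg and 241 in siDyrk2, or 30.17 and 2.25 FPKM. Its level in siDyrk2 was still well above the knockout's 0.24 FPKM. Bcl2, a survival gene, came next at 4.31 and 2.61 FPKM (-0.56), and then Foxd1, a forkhead factor, at 2.05 and 1.27 (-0.43). Ccnd1, the cyclin that drives entry into the cell cycle, was at 141.77 FPKM in siNeg and 117.78 in siDyrk2 (-0.27), against 131.92 for wild type and 78.57 for the knockout. Jag1, a Notch ligand, was the highest of the list (0.45), and Tsc22d1 (0.19), Cntfr (0.11), Ccnd2 (0.10) and Osr1 (0.08) were also above 0. The list median was -0.08 when only genes with at least 5 FPKM were kept, since Hhip and 5 other low members then left the list.

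**Figure D2:**
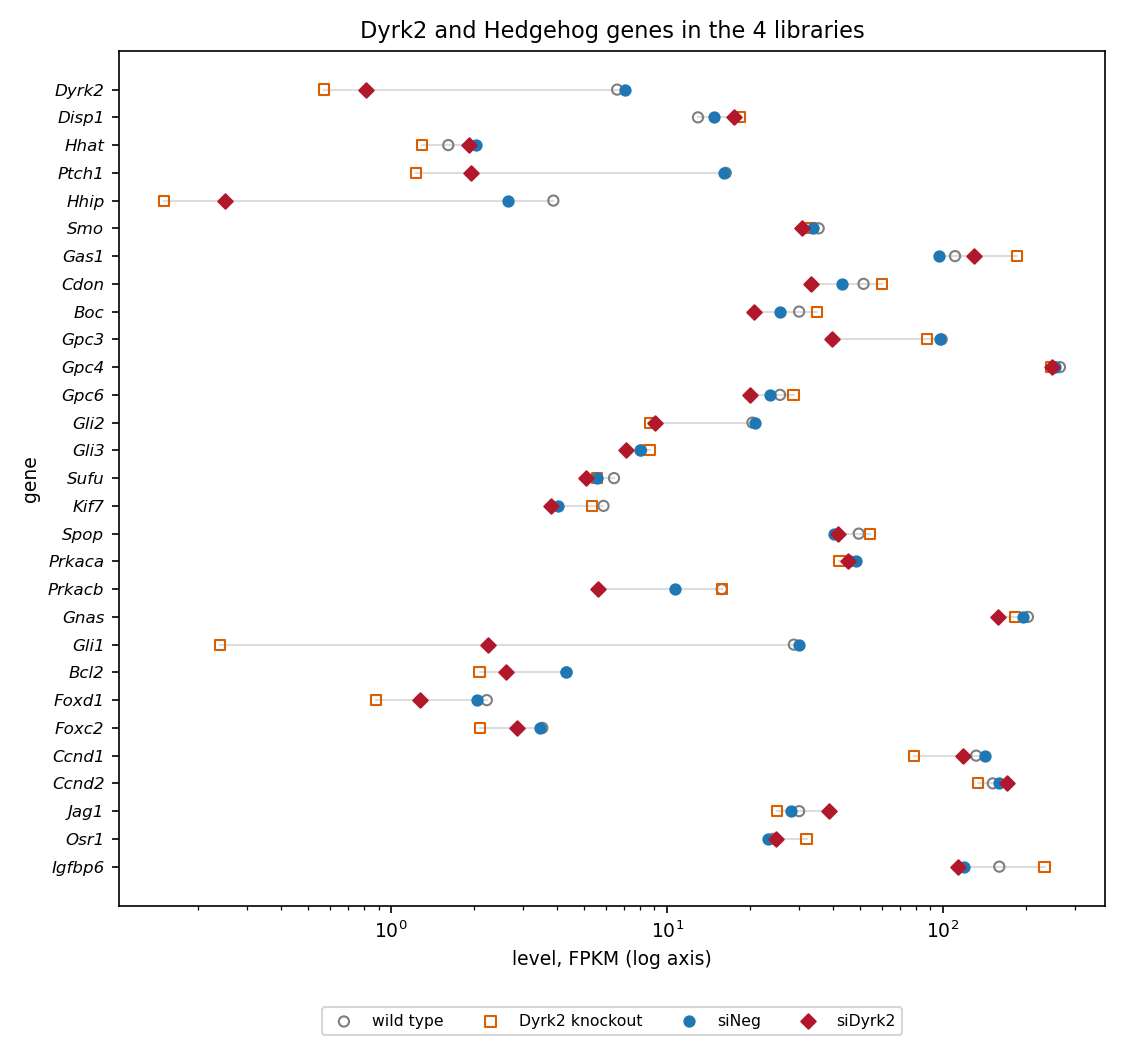
FPKM (log axis) of Dyrk2 and Hedgehog genes in the 4 SAG-treated libraries, 1 symbol per library. For Dyrk2, Ptch1, Hhip, Gli2 and Gli1 the siDyrk2 and knockout symbols lie left of the siNeg and wild-type symbols, whereas for Gpc3 and Prkacb siDyrk2 lies left of all others.

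Upstream windows of 250 bases that end at the annotated transcription start were taken from RefSeq (GRCm38.p6). The GLI consensus TGGGTGGTC, searched on both strands, was in 0.225% of 32851 such windows. It was in 0 of the 10 Hedgehog targets that had a window and in 0 of the 35 windows of the 2-fold lower protein-coding genes. Gli1 had no window. With a share of 0.225%, so few windows were likely to hold no match in any case. These letters are thus not in those windows, which says nothing of sites elsewhere.

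Outside the pathway, the lowest protein-coding genes made up a mixed set of enzymes, surface proteins and secreted factors. With 5 FPKM or more required in 1 of the siRNA libraries, the 20 lowest log2 ratios ran from Gli1 (-3.26) to Trabd2b (-1.24). Tgm2, a transglutaminase that crosslinks matrix proteins, was at 26.22 FPKM in siNeg and 5.33 in siDyrk2, against 16.96 for wild type and 2.29 for the knockout. St8sia2, which adds polysialic acid to the adhesion protein NCAM, was at 24.47 and 6.14 FPKM, against 30.58 and 9.51. In both genes, as in Tspan11 (23.74 and 7.12 FPKM) and Serpinb9b (6.53 and 1.99), the knockout was low as well. Lepr, the leptin receptor (chromosome 4, 101717404 to 101815352), lay under the 5 FPKM limit and was 14.5-fold lower (10.4 to 21.1), at 3.48 FPKM in siNeg and 0.24 in siDyrk2, against 5.98 for wild type and 0.45 for the knockout.

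A second set was low in siDyrk2 and less so, or not, in the knockout. Ssr1, a subunit of the translocon-associated protein complex in the endoplasmic reticulum (chromosome 13, 37966605 to 37994217), was at 33.23 FPKM in siNeg and 8.92 in siDyrk2, a 3.73-fold lower level (3.54 to 3.92), against 29.24 and 26.40 in wild type and knockout. Cmtm3, a small membrane protein (chromosome 8, 104339410 to 104347672), was at 56.86 and 17.00 FPKM, a 3.34-fold lower level (3.12 to 3.58), against 53.75 and 56.96. Both lay outside the range of the other 3 libraries by a wide margin. Ptgfrn, a membrane protein of the immunoglobulin family, was at 45.14 and 17.65 FPKM, against 37.24 and 31.35. Tmx3, a disulfide isomerase, was at 10.16 and 3.31 FPKM, against 9.64 and 8.94. Cnot6, a deadenylase of the CCR4-NOT complex, was at 21.86 and 8.50 FPKM in siNeg and siDyrk2, with 17.16 for wild type and 14.30 for the knockout. Syt13, a synaptotagmin, was at 22.49 and 8.82 FPKM, with 19.98 for wild type and 16.63 for the knockout. In Fgl2, a secreted fibrinogen-like protein, the knockout lay between, at 4.83 FPKM against 7.19 in wild type, with 6.99 in siNeg and 1.62 in siDyrk2. Of the 48 protein-coding genes 2-fold lower against siNeg, 22 were also 2-fold lower in the knockout against wild type, a comparison that shares no library with the siRNA pair and in which 85 of 10982 protein-coding genes (0.774%) were 2-fold lower. Of the 38 higher genes 1 was also 2-fold higher in the knockout, where 27 of 10982 (0.246%) were.

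Ssr1 stood alone in its complex and in its list. Of 33 translocon and signal peptidase genes 22 were lower and 11 higher, with a median of -0.03, and Ssr1 was the 1 that was 2-fold lower. The next lowest were Spcs3 (-0.33), a signal peptidase subunit, and Sec61a1 (-0.32), the channel subunit. Srp14, part of the signal recognition particle, was the highest at 30.20 FPKM in siNeg and 59.12 in siDyrk2, but wild type (55.30) and knockout (57.04) matched siDyrk2. Chaperones of the same compartment had a median of -0.01 over 17 genes, led downwards by Dnajc3 (-0.47), with Hspa5, the main one, at 299.72 and 312.19 FPKM.

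**Figure D3:**
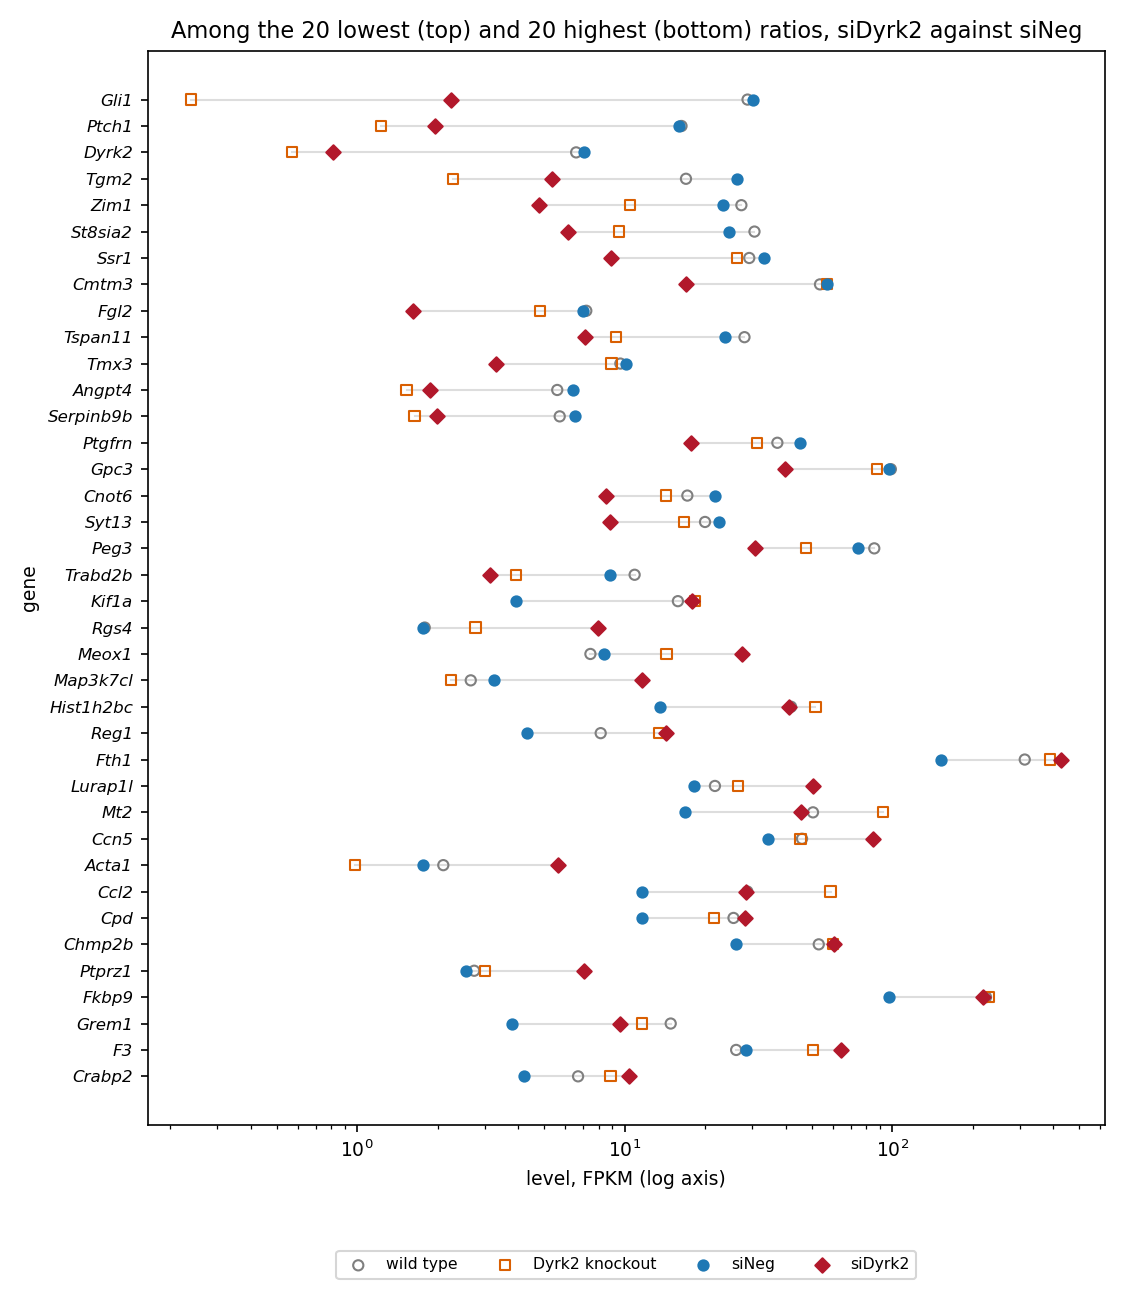
FPKM (log axis) in the 4 libraries of genes among the 20 lowest (upper rows) and 20 highest (lower rows) protein-coding log2 ratios among genes that reach 5 FPKM in either siRNA library. In the upper rows Ssr1, Cmtm3, Tmx3 and Gpc3 are low in siDyrk2 alone, and in the lower rows Kif1a, Hist1h2bc, Fkbp9 and Chmp2b are low in siNeg alone.

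The highest genes divided into those where siDyrk2 stood above all other libraries and those where siNeg stood below. In the first set Rgs4, which dampens G-protein signalling (chromosome 1, 169741477 to 169747642), was at 1.76 FPKM in siNeg and 7.95 in siDyrk2, against 1.79 for wild type and 2.77 for the knockout. Meox1, a homeobox factor of the paraxial mesoderm (chromosome 11, 101877510 to 101894374), was at 8.40 and 27.45 FPKM, against 7.45 and 14.34. Map3k7cl was at 3.24 and 11.62 FPKM, against 2.66 and 2.24. Lurap1l (18.20 and 50.45 FPKM), Ccn5 (34.26 and 85.11), Tnc (71.41 and 153.89) and Ptprz1 (2.55 and 7.05) were likewise highest in siDyrk2. F3, which encodes tissue factor, was at 28.50 and 64.23 FPKM, against 26.12 in wild type and an intermediate 50.78 in the knockout.

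In the second set siDyrk2 lay close to wild type or the knockout and siNeg below both. Kif1a, an axonal transport motor (chromosome 1, 93015464 to 93101951), was at 3.92 FPKM in siNeg and 17.90 in siDyrk2, but at 15.82 for wild type and 18.31 for the knockout. Hist1h2bc, a histone H2B gene, was at 13.60 and 41.30 FPKM, against 41.90 and 51.69. Fth1, the ferritin heavy chain that stores iron, was at 152.23 and 428.77 FPKM, against 313.15 and 387.87. The other genes of this kind were Fkbp9 (97.67 and 218.53, wild type 224.36), Chmp2b (26.12 and 60.80, wild type 53.18), Cpd (11.59 and 28.27, wild type 25.53), Ccl2 (11.57 and 28.40, wild type 28.76) and Mt2 (16.77 and 45.54, wild type 50.61), all in FPKM. Grem1, a secreted BMP antagonist, was at 3.78 FPKM in siNeg and 9.60 in siDyrk2, both below wild type (14.87) and knockout (11.65). Ryk, a Wnt co-receptor, was at 28.77 and 59.98 FPKM, against 50.11 and 48.27. With wild type in place of siNeg, a setting that keeps the siDyrk2 library, 13 of the 38 higher protein-coding genes and 32 of the 48 lower ones still passed 2-fold. Hist1h2bc, Mt2 and Fth1 belong to families with similar copies or pseudogenes, and how the authors assigned shared reads is not given in the sources used here.

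By amount of RNA rather than ratio, the siDyrk2 library held less of the fibrillar collagens and Sparc and more smooth muscle actin. Col1a1, which encodes a chain of type I collagen, showed the largest difference in FPKM towards lower levels, 3207.77 in siNeg and 2376.90 in siDyrk2, against 3233.43 for wild type and 3275.54 for the knockout. Sparc, a collagen-binding glycoprotein (chromosome 11, 55394500 to 55423183), was at 1938.61 and 1130.96 FPKM, a 1.71-fold lower level (1.70 to 1.73), against 1824.85 and 1988.12. Col1a2 (1265.06 and 931.79 FPKM), Col3a1 (1505.17 and 1129.71) and Col5a1 (617.63 and 470.55) gave the same picture, with siDyrk2 the lowest of 4 in each. Together these 5 genes took 6.41% of fragments in siNeg and 4.65% in siDyrk2, against 6.59% and 7.09% in wild type and knockout. Serpinh1, the collagen chaperone, was nearly level at 1531.52 and 1459.22 FPKM.

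Not all collagens followed. Of 25 chains measured 18 were lower and 7 higher in siDyrk2, none 2-fold, with a median of -0.14 (-0.07 with wild type as the control). Col23a1, a transmembrane collagen, was the lowest (4.11 and 1.62 FPKM, -0.96), and Col16a1 (-0.54) and Col14a1 (-0.45) followed. Col15a1 (0.64) and Col18a1 (0.56), basement membrane collagens, and Col10a1 (0.46) were higher.

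Other matrix genes lay on both sides of 0. Matricellular and elastic fibre genes counted 16 higher and 14 lower of 30, 1 of them 2-fold higher, with a median of 0.12. Tnc, an anti-adhesive glycoprotein, led (1.10), followed by Thbs1, which activates latent TGF-beta, at 578.71 FPKM in siNeg and 968.98 in siDyrk2 (0.74), and Eln, elastin, at 152.47 and 249.96 (0.71). Thbs1 and Eln were highest in siDyrk2 among the 4 libraries, with 698.29 and 149.98 FPKM in wild type. Fbn2, a microfibril component, was lower (112.39 and 71.79 FPKM, -0.64). Among proteases Adamts1 (0.96) and Mmp11 (0.77) were highest and Adamts15 (-0.75) lowest, with a median of 0.06 over 30 genes. The inhibitor gene Timp2 was at 335.61 FPKM in siNeg and 510.40 in siDyrk2, but wild type held 452.86.

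Contractile genes were higher in siDyrk2 nearly as a group. Of 24 contractile genes and targets of SRF and YAP, factors that respond to actin and tension, 21 were higher (background 54.4%), 2 of them 2-fold, and 3 lower, with a median of 0.41. Acta2, smooth muscle actin (chromosome 19, 34241090 to 34255590), had the largest difference in FPKM towards higher levels of all genes. It was at 668.51 FPKM in siNeg and 1204.72 in siDyrk2, a 1.80-fold higher level (1.78 to 1.83), against 536.77 for wild type and 322.19 for the knockout. Acta1, skeletal actin, was at 1.76 and 5.64 FPKM, against 2.10 and 0.98, and Actg2, smooth muscle gamma actin, at 19.03 and 39.04, against 22.47 and 11.75. The actins are close in coding sequence, so reads may have been shared among them, which was not tested. Actc1, the cardiac member, was at 0.09 and 0.06 FPKM. Mylk, the kinase that starts smooth muscle contraction, was at 2.52 and 6.45 FPKM (1.08), Tagln at 302.60 and 461.82 (0.61) and Myl9 at 209.25 and 288.86 (0.46). Ajuba (-0.23), Tagln2 (-0.18) and Cald1 (-0.17) were the 3 lower members. Ccn1 (0.54), Ccn2 (0.39) and Ankrd1 (0.67), the classic YAP targets of the list, were higher.

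Markers of pericytes and smooth muscle, cells that wrap vessels, went the same way: 10 of 10 measured were higher, none 2-fold, with a median of 0.52. Acta2, Tagln, Myh11, Cnn1 and Des are also in the contractile list, so the lists are not independent. Against wild type the siDyrk2 median was 0.23, and siNeg lay below wild type (-0.28). Of 11 listed, Rgs5 missed 1 FPKM, at 0.61 in siNeg and 0.76 in siDyrk2. The 11 summed to 1024 FPKM in siNeg and 1738 in siDyrk2, against 866 for wild type and 544 for the knockout, and Acta2 made up most of each sum. Notch3, a pericyte receptor, was at 5.93 and 11.57 FPKM (0.86), although wild type held 9.69, and Des was at 0.72 and 1.89. Fibroblast markers were mixed, 5 higher and 6 lower of 11, with Pdgfra, a receptor of connective tissue cells, at 34.87 and 24.54 FPKM (-0.49) and Pdgfrb, shared with pericytes, at 77.05 and 117.16 (0.60).

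The start-site window of Acta1 is shown because its gene had the highest contractile ratio and the window holds a CArG box, the SRF binding motif, which is in 1.47% of all 32851 windows. It lies on the minus strand of GRCm38.p6 at chr8:123894776-123895025, and capitals mark the box.
Acta1: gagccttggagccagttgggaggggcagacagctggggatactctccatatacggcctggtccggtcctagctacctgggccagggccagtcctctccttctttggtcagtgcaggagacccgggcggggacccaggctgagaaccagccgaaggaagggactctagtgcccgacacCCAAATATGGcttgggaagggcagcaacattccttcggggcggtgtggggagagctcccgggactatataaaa
Of 20 contractile list members with a window, 4 held the motif: Acta1, Cnn2, Myl9 and Vcl. Their log2 ratios ranged from 0.05 for Cnn2 to 1.27 for Acta1, so a match did not go with 1 size of ratio.

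**Figure D4:**
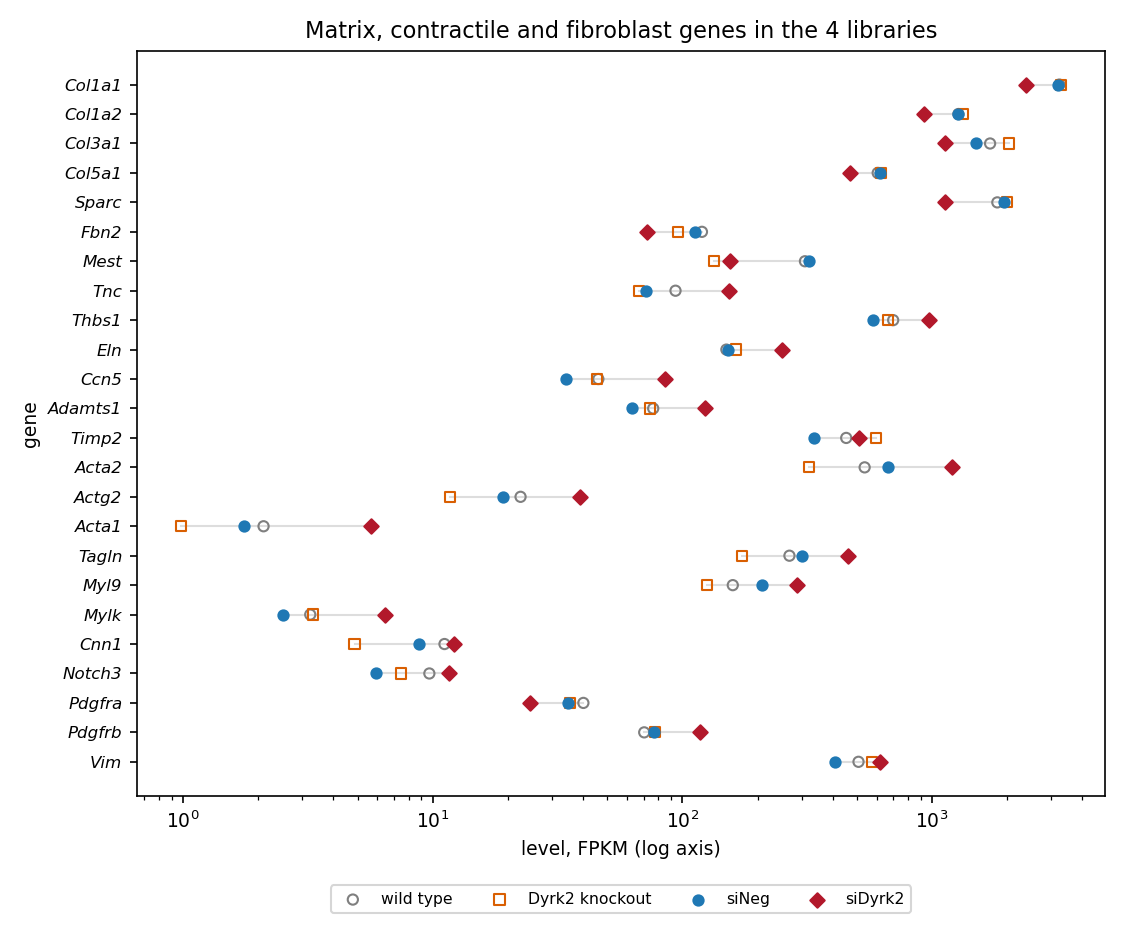
FPKM (log axis) of matrix, contractile and fibroblast genes in the 4 libraries, 1 symbol per library. The siDyrk2 symbol is the lowest for Col1a1, Col1a2, Col3a1, Col5a1 and Sparc and the highest for Acta2, Actg2, Acta1, Tagln, Myl9 and Mylk.

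Signals that act on fibroblasts were split, with a few members far from 0. TGF-beta and BMP genes counted 18 higher and 18 lower of 36 (median -0.00), 2 of them 2-fold higher, Grem1 among them. The ligand genes Tgfb2 (4.65 and 8.10 FPKM, 0.69) and Tgfb3 (47.86 and 69.91, 0.54) were higher, while Tgfbr3, a co-receptor, was lower (22.58 and 13.92, -0.66), as was Smad3, a signal transducer (31.71 and 20.40, -0.61). Among 19 Wnt genes 9 were higher and 10 lower. Wnt2, a ligand, was 2-fold lower (10.59 and 4.38 FPKM), and so low only in siDyrk2, with 9.64 and 7.28 FPKM in wild type and knockout. Dkk2, a secreted modulator, was at 25.30 and 13.81 FPKM (-0.83), against 27.92 and 15.15. Of the R-spondin receptor genes, Lgr4 was at 34.75 FPKM in siNeg and 19.43 in siDyrk2 (-0.81), with 27.92 for wild type and 13.61 for the knockout. Lgr5 was at 14.68 and 29.34 FPKM (0.95), but wild type held 23.47 and the knockout 38.88, so siNeg was the low library and siDyrk2 over wild type was 0.31.

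Growth factor and cytokine receptors counted 11 higher and 16 lower of 27, with Lepr 2-fold lower and Ryk 2-fold higher. Igf1, which encodes a secreted growth factor, was at 33.29 FPKM in siNeg and 18.36 in siDyrk2 (-0.82), against 27.19 and 25.11. Igfbp4, a binding protein, was at 148.67 and 98.63 (-0.59), and 9 of 12 genes of the insulin-like growth factor axis were lower (background 45.2%). Ephrin and Eph receptor genes were lower in 13 of 17 (same background), led by Ephb2 (19.75 and 10.91 FPKM, -0.80) and Efnb3 (3.51 and 1.71, -0.73). Ephb2 was at 16.38 FPKM in wild type and 9.58 with the knockout, while Efnb3 was nearly level between those 2 libraries (3.49 and 3.22).

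Vascular factors held some of the lowest genes of all. Of 23 measured 12 were higher and 11 lower, 2 and 3 of them 2-fold, with a median of 0.01. Sox18, a transcription factor of vessel development (chromosome 2, 181669836 to 181671640), had 67 fragments in siNeg and 2 in siDyrk2, a ratio of 34.5 with a counting interval of 9.59 to 303. Its levels were 2.07 and 0.06 FPKM, against 1.11 for wild type and 0.03 for the knockout. Angpt4 (6.43 and 1.87 FPKM) and Angpt1 (4.87 and 1.84), ligands of the receptor Tek, were both 2-fold lower. Tek itself was at 4.11 and 2.55 FPKM (-0.53). Other endothelial markers were near 0 in both libraries, with Pecam1 at 0.05 and 0.01 FPKM and Cldn5 and Tie1 at 0, and the 7 summed to 5.28 FPKM in siNeg and 3.47 in siDyrk2. Flt1, a VEGF receptor, was higher (8.70 and 16.67 FPKM, 0.87).

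Imprinted genes, expressed from a single parental copy, gave 4 more of the 48. Of 24 measured 15 were lower (background 45.2%) and 9 higher, with a median of -0.12. Zim1 (chromosome 7, 6671269 to 6696450) was at 23.34 FPKM in siNeg and 4.80 in siDyrk2, against 27.32 for wild type and 10.45 for the knockout. Its neighbour Peg3 (chromosome 7, 6703892 to 6730431), a zinc finger gene, was at 74.56 and 30.79 FPKM, against 85.76 and 47.76. Nnat was at 5.91 and 1.99 FPKM, against 4.89 and 1.12. Mest, a hydrolase-like gene of embryonic mesoderm, was the most abundant of the 4, at 322.28 and 154.45 FPKM, against 309.54 and 133.62. In all 4 genes the low libraries were siDyrk2 and the knockout. Impact (0.63) was the highest of the list, at 16.09 and 25.37 FPKM, but wild type held 25.87 and the knockout 38.67, so siNeg was the low library.

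Transcription factors of mesenchymal patterning were lower in 26 of 34 (background 45.2%). Their median was -0.13, and Meox1 was the 1 gene 2-fold different. Sox11 (2.57 and 1.15 FPKM, -0.73), Alx4 (-0.58), Twist2 (26.10 and 17.84 FPKM, -0.52) and Tbx2 (-0.52) were the lowest. Forkhead genes were lower in 13 of 18 (same background). They ran from Foxc1 at -0.45 to Foxs1, a pericyte-associated member, at 6.45 FPKM in siNeg and 11.76 in siDyrk2 (0.78).

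An siRNA is a double-stranded RNA, and cells carry sensors for foreign RNA of that kind. Both cultures of this pair were given an siRNA, and the part of such sensing in the levels below was not tested. Of 24 measured interferon-stimulated genes 21 were higher in siDyrk2 (background 54.4%), 3 lower and none 2-fold, with a median of 0.28. Ifit1, which binds viral RNA, was at 3.37 FPKM in siNeg and 7.21 in siDyrk2, against 2.49 for wild type and 7.42 for the knockout. Isg15, a ubiquitin-like modifier, was at 12.67 and 22.79 FPKM, against 7.02 and 11.84. Slfn5 (2.52 and 5.34), Rtp4 (1.48 and 2.93) and Bst2 (37.97 and 55.13) were also higher, while Irf1 (8.93 and 7.73) and Gbp2 (7.06 and 6.83) were not. The list was also above wild type in siNeg (median 0.20) and in the knockout (0.37). Genes listed as sensors of foreign nucleic acid were higher in 11 of 14 (median 0.24), with Oasl2 (1.19 and 2.54 FPKM) the highest and Cgas the lowest (-0.33). Tlr4 (3.59 and 5.99 FPKM) is counted among the 11, although its known ligand, lipopolysaccharide, is not a nucleic acid. The RNA interference machinery was lower in 10 of 13 (median -0.08), with its scaffold genes apart: Tnrc6b was at 4.50 and 2.40 FPKM (-0.69) and Tnrc6a at 7.18 and 11.25 (0.58).

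Windows upstream of Ifit1 and Isg15 are printed because these were among the highest of the list and carry the interferon-stimulated response element, searched on both strands as TTTC, any 2 bases and TTTC. Ifit1 lies on the plus strand at chr19:34640639-34640888 and Isg15 on the minus strand at chr4:156200819-156201068 (GRCm38.p6), and capitals mark the matches.
Ifit1: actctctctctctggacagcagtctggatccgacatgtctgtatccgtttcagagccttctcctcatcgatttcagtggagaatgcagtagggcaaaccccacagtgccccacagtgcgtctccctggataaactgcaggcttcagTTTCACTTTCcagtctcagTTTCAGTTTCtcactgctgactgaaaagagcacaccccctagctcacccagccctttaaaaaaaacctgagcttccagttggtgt
Isg15: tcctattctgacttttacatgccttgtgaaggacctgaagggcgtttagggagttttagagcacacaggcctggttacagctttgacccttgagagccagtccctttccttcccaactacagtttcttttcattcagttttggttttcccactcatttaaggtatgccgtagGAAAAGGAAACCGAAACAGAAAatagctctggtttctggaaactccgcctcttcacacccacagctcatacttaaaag
Ifit1 held 2 separate matches and Isg15 3 overlapping ones on the other strand. The motif was in 10 of the 19 interferon-stimulated genes with a window, against 2.98% of all windows. Gbp2 (log2 ratio -0.04) and Ifit3 (0.03) were among the 10, so genes with the motif were not all higher.

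Markers of macrophages, cells that respond to foreign RNA and can be present in embryo cultures, were slightly higher beside these genes. Of 10 measured 9 were higher and 1 lower, with a median of 0.23. The 11 listed summed to 273.7 FPKM in siNeg and 339.8 in siDyrk2, against 240.4 for wild type and 495.3 for the knockout. Lyz2 gave most of this, at 154.19 and 196.09 FPKM, and Ptprc, the general leukocyte gene, was at 0.51 and 0.75. The part of these cells in the interferon-stimulated levels was not tested. Chemokines and cytokines were higher in 9 of 14 (background 54.4%), with a median of 0.33, and 0.15 with wild type as the control. Ccl2 was 2-fold higher, with Ccl7 at 18.00 and 35.18 FPKM (0.93) and Ccl11 at 1.62 and 4.00 (0.93). Cxcl14, a chemokine of skin and mesenchyme, was lower at 19.86 and 9.66 (-0.97).

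Large housekeeping groups showed small, even shifts. For cytosolic ribosomal protein genes 78 of 88 were higher (background 54.4%, median 0.17). The same held for 74 of 88 nuclear-encoded respiratory chain genes (0.20) and 19 of 21 mitochondrially encoded genes (0.22). Ribosomal protein genes took 2.12% of fragments in siNeg and 2.42% in siDyrk2, against 2.17% and 2.18% in wild type and knockout. Ndufa7, a subunit of respiratory complex I, stood out from its list at 34.88 FPKM in siNeg and 17.25 in siDyrk2 (-0.98), against 34.55 and 32.39. Ndufs1, of the same complex, was at 6.81 and 12.47 FPKM (0.79), with siNeg below wild type (11.24). Lysosomal genes were higher in 24 of 29 (median 0.13), glycolytic and hypoxia genes in 18 of 21 (0.14), and proteasome genes in 31 of 35 (0.07). On the FPKM scale all genes share the fragments of a library, and collagen chains took 7.54% of them in siNeg and 5.99% in siDyrk2. The part of this difference in the shifts of the groups above was not tested.

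Cell division genes were slightly lower. Genes of G1/S and DNA replication were lower in 26 of 30 (background 45.2%) with a median of -0.20. Those of G2/M and mitosis were lower in 18 of 24 with -0.11. Ccne2, the cyclin of S-phase entry, was at 9.65 FPKM in siNeg and 4.89 in siDyrk2 (-0.85), and Mki67, a proliferation marker, at 21.42 and 17.55 (-0.27). The G2/M median of siNeg against wild type was 0.48, so this list differed more between the libraries with intact Dyrk2. With wild type as the control the siDyrk2 medians were -0.02 for G1/S and 0.37 for G2/M. Among p53 targets 16 of 22 were higher (background 54.4%, median 0.10). Gdf15, a stress cytokine, was at 2.59 and 6.11 FPKM (0.99) and Ccng1 at 155.67 and 237.39 (0.61). Genes of metal storage and NRF2, the regulator of antioxidant genes, were higher in 12 of 19, near the background of 54.4%. Their median was 0.10, and 0.02 with wild type as the control. Fth1, Mt2 and Mt1 (23.26 and 48.25 FPKM) were 2-fold higher. In each of them siNeg was below wild type, and the median of siNeg over wild type for the whole list was -0.17. Cholesterol and fatty acid synthesis genes were even, 14 higher and 15 lower of 29 (median -0.01).

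**Figure D5:**
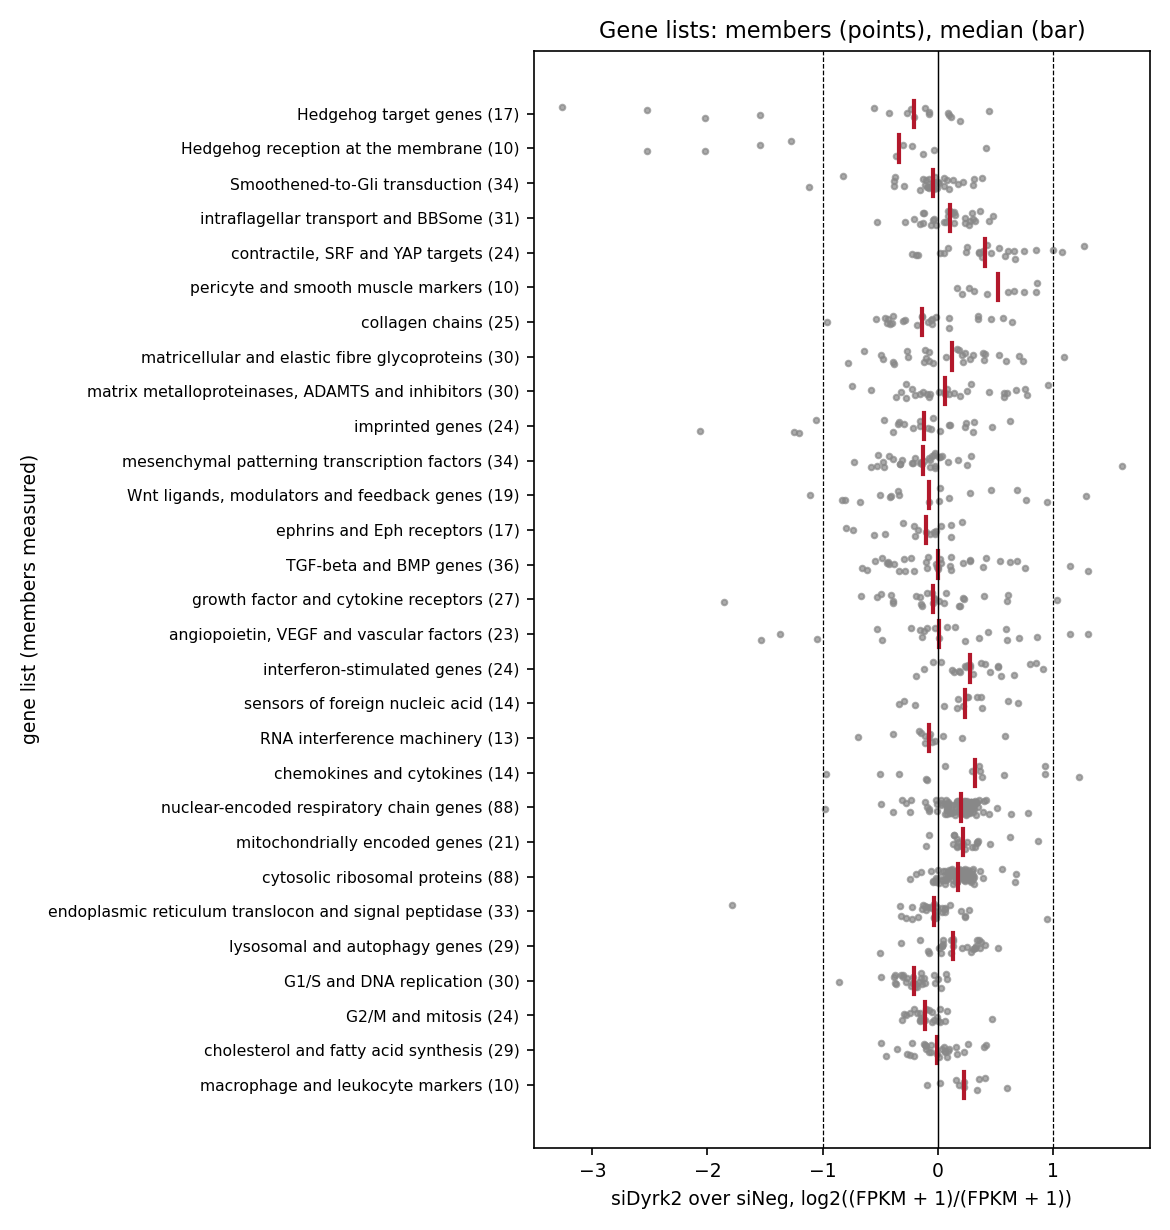
Log2 ratio of siDyrk2 over siNeg (FPKM + 1) for the members of 29 gene lists, 1 point per gene with at least 1 FPKM in either library (number in brackets), with the list median as a bar and dashed lines at 2-fold. The contractile (0.41) and pericyte (0.52) medians lie farthest above 0 and the Hedgehog reception median (-0.33) farthest below.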

How the data were processed

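The deposited values are FPKM per gene with 2 decimals, beside the authors' exonic gene length in bases, per the file headers. Per the labels' protocols, column-purified, DNase-treated RNA was polyA selected and made into stranded libraries. Reads were handled with HISAT2 2.0.1 and cutadapt 1.9.1 on GRCm38, per the submitters' processing notes. The counting program is not given in the sources used here. Of 55573 identifiers, 55480 matched GENCODE release 21 for mouse, which gave symbols, types and coordinates. Depth was recovered as the value that made FPKM of genes up to 200 bases whole fragments (100% of 341 genes in siNeg and 367 in siDyrk2, within rounding). A floor of 3 fragments in a 2 kb gene is 0.0751 FPKM in siNeg and 0.0699 in siDyrk2. Fold intervals are exact conditional binomial (Clopper-Pearson, 95%). Ratios used a pseudocount of 1 FPKM and a minimum of 1 FPKM in either siRNA library. Depth recovery and intervals were tested on simulated data. Python 3.11.15, pandas 2.3.3 and SciPy 1.17.1 were used. The named genes were Dyrk2, the Hedgehog lists, the 20 highest and 20 lowest protein-coding ratios among genes that reach 5 FPKM in either siRNA library, the 10 largest differences in FPKM each way, and up to 6 members of each other list. Further members of a list are named as examples of its range. The members, the 65 lists and these rules were chosen with earlier results of these data known. Pseudocount, filter, scaling, gene type and control library were varied. Some results are not reported here.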

Additional observations from a re-analysis of the deposited data

Results flagged for a closer look

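Contractile genes differed in opposite directions between the siRNA pair and the knockout pair, a difference that was not tested because each side is 1 library. Over the contractile list, with SRF and YAP targets, the median log2 ratio was 0.41 for siDyrk2 over siNeg and -0.35 for knockout over wild type. Pericyte and smooth muscle markers, which share Acta2, Tagln, Myh11, Cnn1 and Des with that list, had 0.52 and -0.30. Among single genes Acta1, skeletal actin, was at 1.27 for siDyrk2 over siNeg and -0.65 for knockout over wild type.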

How the results depend on the processing

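With a pseudocount of 0.1 FPKM the 2-fold counts were 261 higher and 191 lower over all genes (104 and 95 protein-coding), and with 5 FPKM they were 19 and 14 (17 and 14). A filter of 5 FPKM left 42 and 41 over all genes, and restriction to protein-coding genes 38 and 48. Fewer genes were counted in these last settings by construction. A larger pseudocount also brings every log2 ratio nearer to equality, so the counts fall as it grows, by arithmetic. With no filter, and with trimmed-mean or median-of-ratios scaling, each count stayed within 1.5 times, and the median of all genes moved from 0.02 to no less than 0.00. With wild type as the control library 5 named genes changed sign: Ccl2 (-0.0176), Fkbp9 (-0.0378), Grem1 (-0.58), Hist1h2bc (-0.0203) and Mt2 (-0.15), with siNeg below wild type in each. In that setting 49 of the 54 named genes with a 2-fold ratio had the same direction and 31 still passed 2-fold. Of 59 list medians 15 were classed as moved there, a class that does not measure culture-to-culture spread. Among them were intraflagellar transport (-0.07 in place of 0.10), immediate early (-0.31 in place of 0.14), G2/M (0.37 in place of -0.11) and macrophage genes (0.57 in place of 0.23). The pericyte median (0.23 in place of 0.52) was not classed so. With the pseudocount of 5 FPKM all 54 had the same direction and 29 passed.

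No paired analysis was possible because each group has 1 library and the labels give no replicate numbers. Leaving out a library was not possible either. Depth limits genes near 1 FPKM: a gene of 2 kb at the floor of 3 fragments has 0.0751 FPKM in siNeg. Culture-to-culture spread is unknown.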

Other observations

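Genes other than protein-coding ones gave more than their share of the 2-fold counts and rested on few fragments. Of 1514 such genes 58 were higher and 54 lower in siDyrk2, and 96 of these 112 held at most 20 fragments in either siRNA library. The 112 included 31 microRNA precursors, 28 small nucleolar RNAs, 9 small nuclear RNAs and 31 processed pseudogenes. Most small RNAs carry no polyA tail, and the libraries were made after polyA selection. Among abundant RNAs, H19, an imprinted non-coding RNA, was at 1970.74 FPKM in siNeg and 2454.22 in siDyrk2 (log2 ratio 0.32), against 2131.63 for wild type and 2895.93 for the knockout.

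Both genes below were chosen after their values were seen. S100a9, a calcium-binding protein of neutrophils and other myeloid cells, had 0 fragments in siNeg and 15 in siDyrk2 (1.34 FPKM), at least 4.65-fold higher against a floor of 3 fragments per library. It was at 0 FPKM for wild type and 0.26 for the knockout. Gjb2, which encodes a gap junction protein, had 2 fragments in siNeg and 57 in siDyrk2, a ratio of 27.5 with a counting interval of 7.01 to 224. In this gene siNeg was the library apart, with 0.57 FPKM for wild type and 0.67 for the knockout.

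Protein-coding genes 2-fold lower in siDyrk2 were longer than those 2-fold higher, with median exonic lengths of 5355 and 3039 bases over 48 and 38 genes. The median length of all protein-coding genes was not set beside these. With wild type as the control, 16 of the 48 and 25 of the 38 did not pass 2-fold. Tubb3, a neuronal tubulin gene, was at 8.95 FPKM in siNeg and 18.57 in siDyrk2 (0.98), against 7.81 and 4.67 in wild type and knockout. Integrin genes parted by subunit, with Itga8 (5.85 and 11.12 FPKM) and Itga11 (61.05 and 95.60) higher and Itga6 (8.27 and 4.87) and Itgbl1 (25.01 and 13.83) lower.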
